A study of Mus musculus with 4 samples.

Results

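The oogenesins Oog1, Oog2, Oog3 and Oog4 were followed in late two-cell mouse embryos treated with the MYC inhibitor 10074-G5. The 4 genes were chosen by symbol, with measured levels and differences of this comparison already known, from the 24411 genes listed in each library, all 4 were found, and all 4 were among the 13549 genes that passed the filter on low counts. The libraries were made from ICR embryos produced by in vitro fertilization, 10 embryos in each, and collected at 36 h post-insemination (hpi). In 2 libraries the embryos had been cultured with DMSO, the solvent, and in the other 2 with 6 µM 10074-G5, a compound that blocks the dimer of MYC with its partner MAX. The labels place the start of treatment at 3 hpi, and the design text of the series at 6 hpi. The labels name no engineered allele in either group. Each library pooled embryos, so fewer embryos with a transcript and less of it in each embryo cannot be told apart.

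Oogenesins are leucine-rich repeat proteins of the PRAME family, a family of tandemly duplicated genes that is active in germ cells and early embryos. Their transcripts accumulate in the growing oocyte and persist into the cleavage-stage embryo, where maternal transcripts are cleared while the embryonic genome is activated. OOG1, the best studied of them, is known to bind Ras and RalGDS, a factor that activates the small GTPase Ral.

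On GRCm38.p6, the patch release of the mm10 build used by the authors, Oog4 (143437164 to 143450324), Oog3 (144157556 to 144162651) and Oog2 (144190717 to 144196934) lie on chromosome 4. From Oog4 to Oog2 this stretch covers 760 kb and holds 30 RefSeq genes, of which 19 code for proteins and 15 of these have a Prame or Oog symbol. Oog3 and Oog2 are neighbours, 28.1 kb apart and on opposite strands. Oog1 lies on chromosome 12 (87602665 to 87608845), away from the other three. No other RefSeq gene overlaps the span of any of the 4, and the strand of the fragments is not known from the counts. The 250 bases before the annotated start of each gene, from RefSeq on GRCm38.p6, are shown because the 4 windows resemble each other, with the longest run found in all of them in capitals.
Oog1, chr12:87602415-87602664, plus strand: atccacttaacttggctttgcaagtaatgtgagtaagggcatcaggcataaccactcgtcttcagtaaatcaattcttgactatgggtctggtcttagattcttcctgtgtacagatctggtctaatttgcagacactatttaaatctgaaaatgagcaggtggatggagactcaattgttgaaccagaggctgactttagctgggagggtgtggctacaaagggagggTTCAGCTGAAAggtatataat
Oog2, chr4:144190467-144190716, plus strand: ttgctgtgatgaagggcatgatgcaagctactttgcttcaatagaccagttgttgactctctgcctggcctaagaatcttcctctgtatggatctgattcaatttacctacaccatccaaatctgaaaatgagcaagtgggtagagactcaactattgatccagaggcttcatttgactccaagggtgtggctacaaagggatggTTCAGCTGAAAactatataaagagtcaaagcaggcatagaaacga
Oog3, chr4:144162652-144162901, minus strand: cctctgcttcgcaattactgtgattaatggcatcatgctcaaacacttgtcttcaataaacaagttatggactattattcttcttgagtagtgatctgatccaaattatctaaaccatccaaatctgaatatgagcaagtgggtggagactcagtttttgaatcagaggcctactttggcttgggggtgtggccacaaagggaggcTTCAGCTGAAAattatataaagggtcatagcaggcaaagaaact
Oog4, chr4:143450325-143450574, minus strand: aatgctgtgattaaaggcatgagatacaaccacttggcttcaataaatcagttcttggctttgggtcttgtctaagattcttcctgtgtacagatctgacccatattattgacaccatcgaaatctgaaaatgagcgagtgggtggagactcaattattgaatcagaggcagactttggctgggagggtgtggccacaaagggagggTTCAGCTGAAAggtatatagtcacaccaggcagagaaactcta
Between 70.0% (Oog1 and Oog2) and 78.0% (Oog2 and Oog4) of the 250 bases were identical in pairwise alignments of these windows. The mean identity of 27021 other RefSeq promoter windows to the 4 genes had a median of 3.7%, since unrelated windows aligned over a few bases only. The capital run, TTCAGCTGAAA, occurred in 13 of 27025 windows (0.0481%) on either strand, the 4 oogenesins included. It was picked as shared by these 4, and it was also in 2 of 27 windows of other PRAME family genes, Gm13084 and C87499. The windows of Gm2042 and Pramel23 held it as well. The run ended 34 to 35 bases before the annotated start in Oog2 and Oog3, 33 bases before it in Oog4 and 11 bases before it in Oog1. A TATATA element began 30 to 32 bases before the start in Oog2, Oog3 and Oog4 and 8 bases before the start in Oog1, so the spacing between the run and the element was the same in all 4, while the distance to the annotated start of Oog1 was shorter. TATATA was found in 5.61% of all windows and in 10 of 27 windows of other PRAME family genes. The E-box bound by MYC and MAX, CACGTG, was in none of the 4 windows and in 5.89% of all windows, which says only that these letters are not in these windows. Other E-boxes of the form CANNTG were in all 4 windows and in 66.5% of all windows, and 1 of them in each gene lies within the capital run. TAATTG, an element bound by the oocyte factor NOBOX, was in the windows of Oog3 and Oog4, on the reverse strand. It was in 7.33% of all windows and in 8 of the 27 other PRAME family windows.

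**Figure D1:**
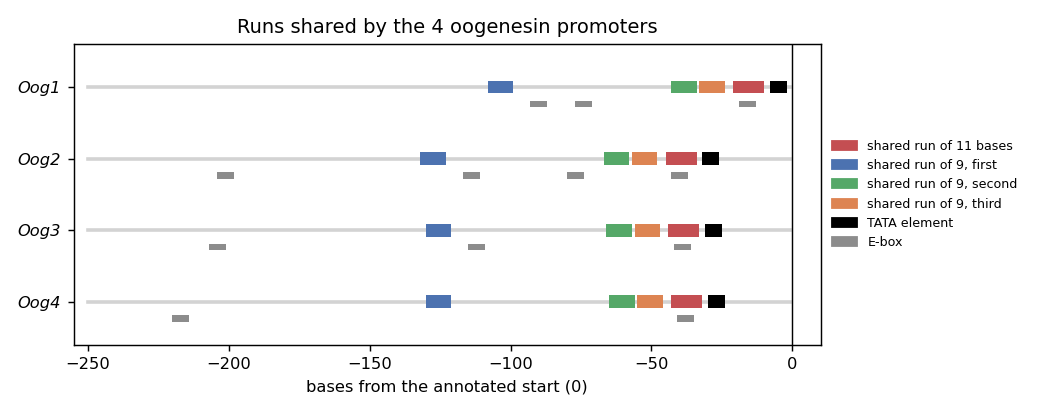
Positions of the sequence runs of at least 9 bases shared by the 4 oogenesin promoters, of the TATATA element and of CANNTG E-boxes, plotted as bases from the annotated start, 1 row per gene. The 4 runs drawn, of 9 or 11 bases, and the TATATA element have the same order in all 4 rows, and in Oog1 they lie nearer the annotated start, with the run of 11 bases ending 11 bases before it.

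The coding sequences also resembled each other, with an identity from 73.3% (Oog2 and Oog4) to 81.2% (Oog1 and Oog3). The transcripts were 1801 bases long in Oog1, 1917 in Oog2, 1865 in Oog3 and 1981 in Oog4, and encode 496, 476, 500 and 430 codons. No stretch of 75 bases was identical between any 2 of the 4 transcripts, but copies outside the 4 genes shared such stretches. Of all 75-base stretches of the Oog1 transcript, 94.0% were found in transcripts of other genes, with 93.3% found in Gm2042, a gene on chromosome 12 (87954480 to 87960682) whose promoter window was 99.6% identical to that of Oog1. For Oog2 this share was 31.0%, mostly shared with Gm13084, and for Oog4 it was 0%. For Oog3 it was 13.6%, shared with Gm4350, which is not among the genes listed in the libraries. The expected counts of Oog3 and Oog4 were whole numbers in every library, and those of Oog1 and Oog2 in none (tolerance 0.005), which shows that fragments of the latter were divided between genes. As Gm4350 has no counts of its own, the whole counts of Oog3 cannot show whether fragments of Gm4350 are among them.

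The libraries summed to between 18206584 and 20718690 expected counts, with 14864 to 15643 genes at 1 count or more. DMSO library 1 stood apart from the other 3 libraries, with a TMM scaling factor of 0.873 against 1.04 to 1.06, and the differences of the oogenesins and the medians of the gene lists are also given without it. Of 12 markers of the two-cell embryo, 11 were at 1 FPKM (fragments scaled to transcript length and library size) or more in every library, Hspa1a being the exception. The summed FPKM of the 12 was 3626 and 5008 in DMSO libraries 1 and 2 and 4445 and 5321 in inhibitor libraries 1 and 2. Some single markers differed more between libraries than this sum, and Obox3 differed less, with 671 to 812 FPKM. Zscan4c had 14.6 and 252 FPKM in DMSO libraries 1 and 2, and 250 and 385 FPKM in inhibitor libraries 1 and 2. Obox6, the most abundant, went the other way, with 2010 and 1627 FPKM in control and 787 and 1103 FPKM in treated libraries. The summed FPKM of 19 cumulus and granulosa cell markers ranged from 14.9 to 23.5 in control and from 10.8 to 14.1 in treated libraries, with Amh, Foxl2, Inha, Inhba, Ptx3 and Ereg at 0 in all 4. The highest of them, Amhr2, had 21.5 and 8.57 FPKM in control and 5.57 and 4.45 FPKM in treated libraries. The summed FPKM of 14 sperm markers ranged from 56.6 to 74.2 in control and from 85.5 to 99.1 in treated libraries, with Prm1, Tnp2, Smcp, Spata18, Acr and Gapdhs at 0 in all 4 and the highest values in Ldhc and Odf2. That of 12 markers of later stages ranged from 27.4 to 35.4 in control and from 24.1 to 31.7 in treated libraries. Gata4, the highest of these, had 23.4 and 20.7 FPKM in control and 9.07 and 12.0 FPKM in treated libraries. The part of these cell types in the oogenesin values was not tested.

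Oog3 was the most abundant oogenesin by far. Its level was 1399 and 5079 FPKM in DMSO libraries 1 and 2, and 9968 and 7333 FPKM in inhibitor libraries 1 and 2. It ranked 96th among the 24411 genes in DMSO library 1, and 7th, 4th and 5th in the other 3 libraries, and took 0.220%, 0.799%, 1.57% and 1.16% of all expected counts. Oog1, the oogenesin with known binding to Ras proteins, followed with 282 and 542 FPKM in DMSO libraries 1 and 2 and 1555 and 1163 FPKM in inhibitor libraries 1 and 2. Oog4 had 19.8 and 128 FPKM in control and 233 and 164 FPKM in treated embryos. Oog2, next to Oog3 on the chromosome, was the lowest with 14.4 and 51.8 FPKM in control and 97.0 and 103 FPKM in treated embryos.

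The order by FPKM, Oog3 over Oog1 over Oog4 over Oog2, was the same in each of the 4 libraries. Oog3 and Oog1, and Oog1 and Oog4, were separate in either group, whereas the control ranges of Oog4 and Oog2 overlapped and their treated ranges did not. For all 4 genes both treated libraries lay above both control libraries, DMSO library 1 was the lowest library, and the treated libraries differed by a smaller fold than the control libraries. Together, the 4 genes took 0.270% and 0.913% of the expected counts in DMSO libraries 1 and 2, and 1.87% and 1.38% in inhibitor libraries 1 and 2.

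**Figure D2:**
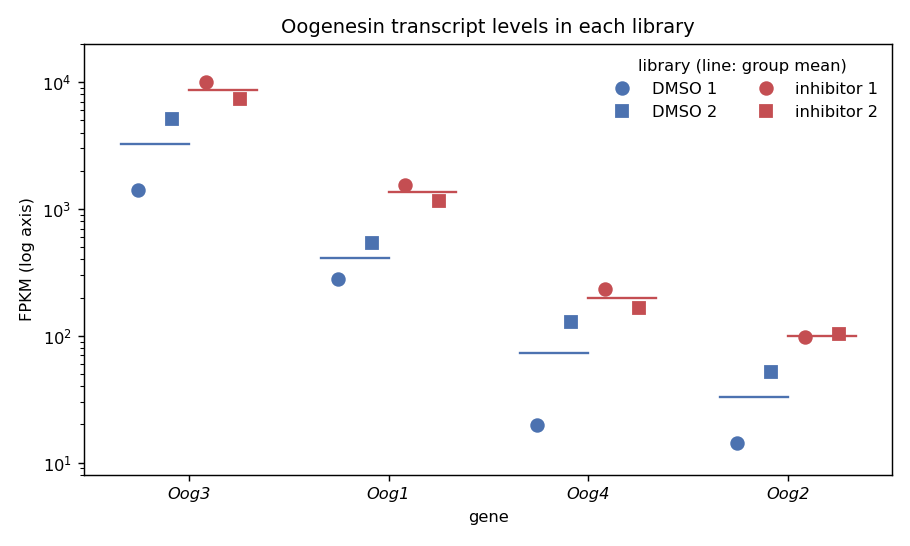
FPKM of the 4 oogenesins (log axis) in each of the 4 libraries, control in blue and inhibitor-treated in red, with circles for library 1, squares for library 2 and lines at the group means. In every gene both red points lie above both blue points, and the lowest point is DMSO library 1, for example 19.8 FPKM for Oog4 against 128 in DMSO library 2.

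The mean level of Oog3 was 3239 ± 2602 FPKM (SD, n = 2) in control and 8650.3 ± 1864 FPKM (SD, n = 2) in treated embryos, that of Oog1 412 ± 183 and 1359 ± 277, that of Oog4 73.6 ± 76.2 and 199 ± 48.5, and that of Oog2 33.1 ± 26.4 and 99.9 ± 4.12. The log2 fold change (log2FC, inhibitor-treated over control) was fitted with edgeR to counts scaled with TMM factors over all tested genes. It was 1.62 (standard error 0.43) for Oog1, 1.52 (standard error 0.54) for Oog2, 1.35 (standard error 0.59) for Oog3 and 1.38 (standard error 0.71) for Oog4, against a median of 0.04 over all tested genes. A log2FC over 1 was found for 2448 of the 13549 tested genes (18.1%). The 4 oogenesins lay from the 89.8th percentile (Oog3) to the 93.5th (Oog1). Since results of this comparison were known when the 4 genes were chosen, these differences are descriptions and carry no test. The edgeR test called 0 of the 13549 genes (0%) at an adjusted p under 0.05 and |log2FC| over 1, none of the oogenesins included, while 2013 genes had an unadjusted p under 0.05 (14.9%), 618 of them with a log2FC over 1 (4.56%). DESeq2, the tool of the authors, was run here with transcript lengths, which the paper does not mention, so this is not the fit of the paper. It called Oog1 and none of the other 3, among 87 higher genes of 18208 (0.478%). DESeq2 on the genes tested by edgeR called Oog1 and Oog2 among 97 higher genes (0.716%), and so did edgeR without the filter among 165 of 18208 (0.906%). With the replicate number as a block, edgeR called 12 higher genes (0.0886%), none of them an oogenesin. The groups did not overlap, with treated embryos higher, for all 4 oogenesins and for 3920 of all tested genes (28.9%). Of the tested genes, 3253 (24.0%) had the same order of libraries as the oogenesins, with DMSO library 1 lowest, DMSO library 2 next and both treated libraries above.

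How far the difference rested on DMSO library 1 varied with the gene. In counts scaled to library size with the TMM factors (CPM), DMSO library 2 was 1.61-fold above DMSO library 1 for Oog1, 3.03-fold for Oog2, 3.05-fold for Oog3 and 5.43-fold for Oog4. Against DMSO library 2, the lower treated library was 2.10-fold higher for Oog1, 1.87-fold for Oog2, 1.42-fold for Oog3 and 1.26-fold for Oog4, and 37.2% of all tested genes were higher than DMSO library 2 in both treated libraries. By the counts assigned to it, Oog1 alone of the 4 had a gap between the groups above the gap between the control libraries. Summed with its copy Gm2042 it did not, with 1.94-fold between the control libraries and 1.32-fold from DMSO library 2 to the lower treated library, nor did the sum with all 4 genes sharing its fragments, with 2.45-fold and 1.35-fold. Without DMSO library 1 the log2FC was 1.33 for Oog1, 0.95 for Oog2, 0.77 for Oog3 and 0.64 for Oog4. Without DMSO library 2 it was 2.01, 2.53, 2.37 and 3.07, and edgeR then called all 4 genes among 2147 higher genes (15.8%), with 1 control library assumed to vary like the treated ones. Leaving out either treated library kept it between 1.13 (Oog3 and Oog4 without inhibitor library 1) and 1.83 (Oog1 without inhibitor library 2).

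**Figure D3:**
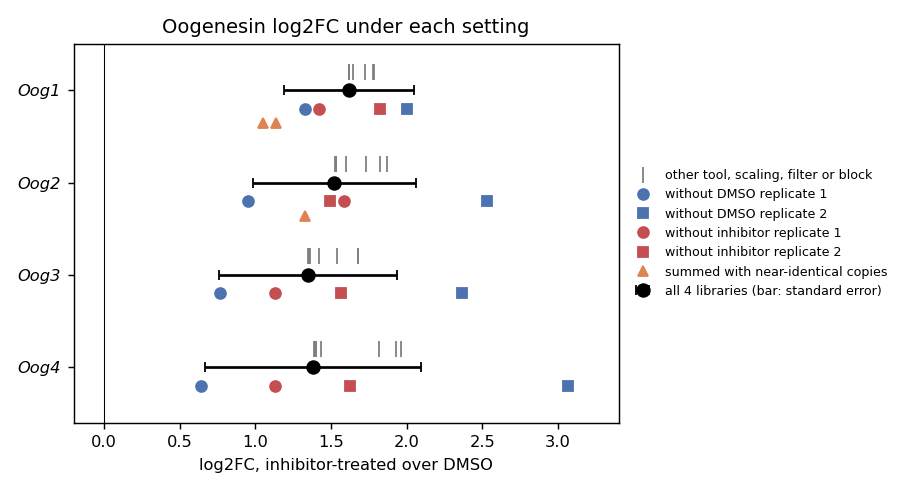
log2FC of each oogenesin with all 4 libraries (black, bar for the standard error), under other tools, scalings, filters and the replicate block (grey ticks), with 1 library left out (blue and red), and with counts of near-identical copies added (orange). All values lie above 0, since both treated libraries lie above both control libraries in each gene. The widest spread, from 0.64 to 3.07, is that of Oog4 with either control library left out.

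The ratio of 2 genes within a library does not depend on the scaling of libraries. Oog3 was 97.3-fold and 98.1-fold above Oog2 in DMSO libraries 1 and 2, and 103-fold and 71.3-fold above it in inhibitor libraries 1 and 2, the steadiest of the 6 ratios by FPKM. The ratio of Oog1 to Oog4 moved most, from 14.3 in DMSO library 1 to 4.25 in DMSO library 2, with 6.68 and 7.07 in the treated libraries between them. Oog3 made up 81.6%, 87.6%, 84.1% and 83.7% of the summed FPKM of the 4 genes in the same order of libraries.

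The value of Oog1 also depends on how its fragments were divided. The expected counts of Oog1, Gm2042, Gm10436, C87977 and Gm13023 were for the most part not whole one by one, but their sum was a whole number in every library (tolerance 0.02), with 30395, 84273, 167217 and 126555 counts in DMSO libraries 1 and 2 and inhibitor libraries 1 and 2. Gm10436, C87977 and Gm13023 belong to the PRAME family, and each shares 75-base stretches with Oog1. Gm2042 had 606 and 1342 CPM in control and 1598 and 1136 CPM in treated embryos, so its groups overlapped, and its log2FC was 0.49 (standard error 0.48). Of the counts of Oog1 and Gm2042 together, Oog1 was given 45.4% and 37.7% in the control libraries and 59.3% and 60.1% in the treated ones. Their sum was 1109.5 and 2154 CPM in control and 3930.2 and 2845 CPM in treated embryos, without overlap, with a log2FC of 1.05 (standard error 0.47) in place of 1.62. Summed over all 5 genes, the log2FC was 1.14 (standard error 0.52). For Oog2 and Gm13084, whose counts also added up to whole numbers in every library, the summed log2FC was 1.33 (standard error 0.51) in place of 1.52. These sums were chosen after the values were seen.

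**Figure D4:**
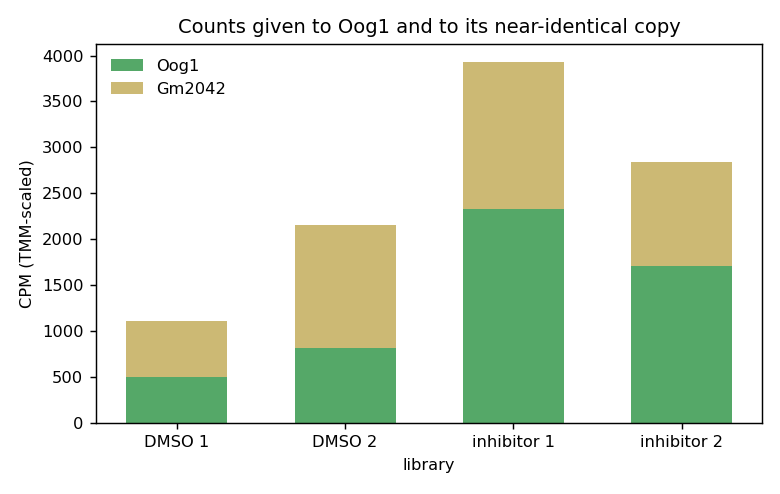
CPM given to Oog1 (green) and to its near-identical copy Gm2042 (yellow), stacked for each of the 4 libraries. The stacks are higher in both treated libraries, and the green part takes 59.3% and 60.1% of them against 45.4% and 37.7% in the control libraries.

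The PRAME family is the wider family of the oogenesins. Besides the 4, the files list 32 genes with a Prame symbol or an older name of one in RefSeq, of which 31 were tested. In treated embryos 23 of them had a log2FC above 0 and 8 below, with a median of 0.46 and a range from -1.68 (Pramel6) to 1.31 (Gm3259). The groups did not overlap for 14 genes with treated embryos higher (45.2%, against 28.9% of all tested genes) and for 8 with treated embryos lower (25.8%, against 28.3%). The 14 higher genes include C87977, Gm10436, Gm13023 and Gm13084, which share fragments with Oog1 or Oog2. Gm2042, the near-identical copy of Oog1, has no Prame symbol and is not counted here. edgeR called 0 of the 31, with an unadjusted p under 0.05 and |log2FC| over 1 for 3 higher and 5 lower genes, against 4.56% and 9.38% of all tested genes. DESeq2 with transcript lengths called 2, Pramel6 and Pramel7, both lower, as were 438 of all 18208 genes in its fit (2.41%). Leaving out DMSO library 1 gave a median of 0.14, and leaving out DMSO library 2 gave 1.25. The 9 tested genes between Oog4 and Oog2 on chromosome 4 had a median of 0.46 and the 22 elsewhere one of 0.53.

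**Figure D5:**
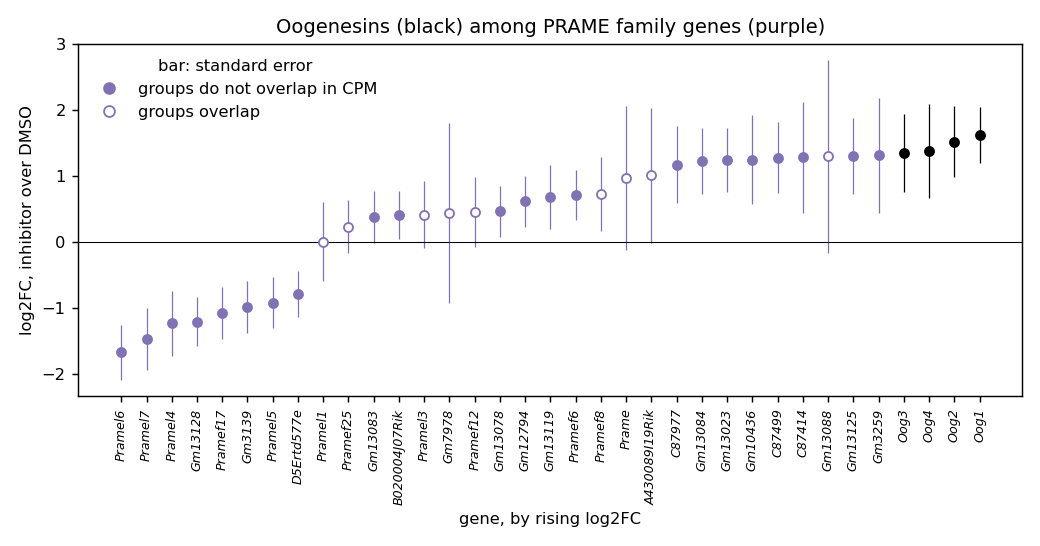
log2FC with standard errors of the 4 oogenesins (black) and 31 other PRAME family genes (purple), ordered by log2FC, with filled points where the groups do not overlap in CPM. The oogenesins, chosen with these values known, lie at the right end between 1.35 and 1.62, and 8 other genes lie below 0, down to -1.68 for Pramel6. Gm2042, the copy of Oog1 without a Prame symbol, is not drawn.

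By the rule for named genes, the 4 family members with the highest mean FPKM were C87977, Gm10436, Gm13023 and Gm3139. C87977, the next gene after Oog2 on chromosome 4, had 139 and 558 FPKM in control and 911 and 729 FPKM in treated embryos, and its log2FC was 1.17 (standard error 0.58). Gm10436 (log2FC 1.25) and Gm13023 (log2FC 1.24) were also higher in both treated libraries. Gm3139, with 435 and 393 FPKM in control and 183 and 280 FPKM in treated embryos, was lower in both, with a log2FC of -0.99 (standard error 0.40). None of these passed the edgeR test (Benjamini-Hochberg adjusted p from 0.333 to 0.398).

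Neighbours on the chromosome did not all follow the oogenesins. Pramel4, 2 genes before Oog3, had 632 and 257 CPM in control and 157 and 220.1 CPM in treated embryos, the opposite order of the groups, with a log2FC of -1.24 (standard error 0.50). Gm13102, between Pramel4 and Oog3, had 5.27 and 1.48 CPM in control and 0.835 and 2.96 CPM in treated embryos, and its groups overlapped. Before Oog4, Pramel1 (log2FC 0.0026, standard error 0.59) and Pramef8 (log2FC 0.72, standard error 0.56) also overlapped between the groups. Next to Oog1, Gm4027 had 332 and 1123 CPM in control and 1780.0 and 2226 CPM in treated embryos, and its log2FC was 1.46 with a standard error of 0.59 (edgeR adjusted p = 0.333).

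Since oogenesin transcripts are stored by the oocyte, 77 other tested genes for stored oocyte transcripts were set beside them. Of these, 65 had a log2FC above 0 and 12 below, with a median of 0.81, and the groups did not overlap for 54 with treated embryos higher (70.1%, against 28.9% of all tested genes) and 5 with treated embryos lower (6.49%, against 28.3%). edgeR called none, with an unadjusted p under 0.05 and |log2FC| over 1 for 19 higher and 2 lower genes, against 4.56% and 9.38% of all tested genes. DESeq2 with transcript lengths called 7, all higher (0.478% of all genes), which were Izumo1r, Kpna7, Nobox, Oas1c, Oosp1, Tcl1b1 and Zbed3. Leaving out DMSO library 1 gave a median of 0.49, and leaving out DMSO library 2 gave 1.68. A log2FC above that of Oog3 was found for 17 of the 77 genes. The most abundant of the 77, Omt2b, had 14509 and 22367 FPKM in control and 35927 and 33514 FPKM in treated embryos (log2FC 0.80), and Omt2a (log2FC 0.87) and the AKT coactivator gene Tcl1 (log2FC 1.28) were also higher in both treated libraries. Dppa3, which protects the maternal genome from demethylation, went the other way, with 23548 and 15004 FPKM in control and 11263 and 12132 FPKM in treated embryos (log2FC -0.89).

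Of 34 tested genes of the transient two-cell programme, which share B020004J07Rik and D5Ertd577e with the PRAME family, 25 had a log2FC above 0 and 9 below, with a median of 0.72 and no overlap for 20 higher (58.8%, against 28.9% of all tested genes) and 5 lower genes (14.7%, against 28.3%). edgeR called none, with an unadjusted p under 0.05 and |log2FC| over 1 for 2 higher and 3 lower genes, against 4.56% and 9.38% of all tested genes. DESeq2 with transcript lengths called Zscan4f, higher (0.478% of all genes), and Trim43c, lower (2.41%). Leaving out DMSO library 1 gave a median of 0.27, and leaving out DMSO library 2 gave 1.33. The 4 most abundant, Gm2016, Gm5662, Tcstv3 and Gm8300, had a log2FC of 0.87, 0.94, 0.74 and 1.08, with treated libraries above control libraries in each.

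The partners of OOG1 were followed in 28 tested genes of Ras and Ral signalling, of which 18 had a log2FC above 0 and 10 below, with a median of 0.31. The groups did not overlap for 14 higher (50%, against 28.9% of all tested genes) and 6 lower genes (21.4%, against 28.3%). edgeR called none, with an unadjusted p under 0.05 and |log2FC| over 1 for 1 higher and 2 lower genes, against 4.56% and 9.38% of all tested genes. DESeq2 with transcript lengths called Sos1, a Ras activator, which was lower (2.41% of all genes). Leaving out DMSO library 1 gave a median of 0.27, and leaving out DMSO library 2 gave 0.53. Rap1b and Rap1a, small GTPases among the most abundant of them, had a log2FC of 0.71 and 0.65. Ralgds itself, named after its values were seen, had 2.93 and 6.32 FPKM in control and 3.60 and 6.35 FPKM in treated embryos, with overlapping groups.

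Genes with the profile most like each oogenesin were sought among 7169 tested genes with a mean CPM of at least 10, by the Euclidean distance between log2 CPM over the 4 libraries, centred on the mean of each gene. This distance describes 4 libraries only. For Oog3 the nearest were Sebox (distance 0.061), an oocyte homeobox gene, Hirip3 (0.066) and Mtmr2 (0.085), and for Oog4 they were Cyb5a (0.018), Gm11487 (0.078) and Gm11236 (0.11). For Oog2 they were Eif4e1b (0.091), an oocyte form of the cap-binding translation factor, Gyg (0.12) and Rab38 (0.14), and for Oog1 they were Ccdc91 (0.14), Rasl2-9 (0.15) and Gltp (0.15). The oogenesins were not the nearest of each other. The closest pair, Oog2 and Oog3, was 0.42 apart, and 140 other genes lay nearer to Oog2 than Oog3 did.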

How the data were processed

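Polyadenylated RNA of 4 libraries was prepared by the authors with a SMART-Seq kit and sequenced as read pairs. Per the labels and the paper, reads were aligned to mm10 with STAR (version 2.7.10), only uniquely mapped reads were kept, and genes were quantified with RSEM (version 1.3.3). The counts of Oog1 and Oog2, which were not whole, show that fragments matching several genes still entered the expected counts. The deposited expected count is the estimated number of fragments of a gene and is not normalized. Levels between genes were compared by FPKM, which the authors deposited beside it. The TPM deposited by the authors was not used. The effective lengths deposited by the authors entered 1 alternative. PCR duplicates could not be removed, since no molecular identifiers are stated.

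Expected counts were rounded, filtered (filterByExpr, minimum count 10, minimum total 15), scaled with TMM and tested with edgeR 4.0.16 (quasi-likelihood, robust, Benjamini-Hochberg) in R 4.3.3, with the thresholds of the paper (adjusted p under 0.05, |log2FC| over 1). The standard error is the log2FC over the square root of the F statistic. The replicates are biological per the paper. The oogenesins and the gene lists, written from general knowledge, were chosen with earlier results of these data known. Genes were named by rank of mean FPKM in a list, nearest profile, or neighbouring position. Some genes named by this rule are not reported here. Promoter windows were matched for all 4 genes and aligned with Biopython 1.88. Alternatives used DESeq2 1.42.0 and limma 3.58.1. In 3 sets of simulated counts for 13549 genes, 200 were given a log2 change of 2, of which edgeR called 30.3%, DESeq2 40.3% and limma 24.2%, and 4.21%, 23.7% and 2.03% of their calls were unchanged genes.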

Additional observations from a re-analysis of the deposited data

How the results depend on the processing

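The log2FC of each oogenesin and the median of each list stayed above 0 in all 13 alternatives fixed at the start, and in the sums with near-identical copies, which were chosen after the values were seen. For the oogenesins this sign could hardly change, since both treated libraries lay above both control libraries, so only the size of the log2FC is informative. Changes of tool, scaling, filter and pseudocount gave 1.62 to 1.78 for Oog1, 1.52 to 1.87 for Oog2, 1.35 to 1.68 for Oog3 and 1.39 to 1.96 for Oog4. Leaving out single libraries, the log2FC ranged from 1.33 to 2.01 for Oog1, from 0.95 to 2.53 for Oog2, from 0.77 to 2.37 for Oog3 and from 0.64 to 3.07 for Oog4, and the median from 0.14 to 1.25 for the PRAME family, from 0.49 to 1.68 for stored oocyte transcripts, from 0.27 to 1.33 for two-cell genes and from 0.27 to 0.53 for Ras and Ral genes. Oog1 moved to 1.05 when summed with Gm2042 and to 1.14 when summed with all 4 genes that share its fragments. The number of called genes, 0 with edgeR, was 576 with DESeq2 on the same genes, 524 with DESeq2 without the filter, 525 with transcript lengths, and 644 with edgeR without the filter, and single libraries left out gave from 0 to 4172, the latter without DMSO library 2. Oog1 and Oog2 were called by DESeq2 on the same genes (0.716% of genes called higher) and by edgeR without the filter (0.906%), and all 4 without DMSO library 2 (15.8%), where a single control library was left and assumed to vary like the treated ones. Limma called 0 genes on FPKM, with 1825 at an unadjusted p under 0.05 with a pseudocount of 1. Library totals in place of TMM factors moved the median of all genes to 0.17. With the replicate number as a block, 44 genes were called, no oogenesin among them. The same numbers share no stated animal or day, and the deviations of same-numbered libraries had a correlation of -0.034 across genes. With 2 libraries in each group, differences of the size seen between the control libraries cannot be resolved.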

Other observations

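Promoters most like those of the oogenesins were sought among all 27021 other RefSeq windows by mean identity to the 4 genes, a comparison made after the values were seen. The 7 windows that lay above the lowest mean identity of an oogenesin to the other three (72.4%) belonged to Gm13084 (79.8%), Gm2042 (79.1%), Gm13023 (76.9%), Gm13103 (75.8%), C87977 (75.2%), C87499 (74.5%) and Pramel23 (73.8%). The 2 measures are unlike, since these means cover all 4 oogenesins, a near copy included, and the 72.4% leaves out the gene itself. The window of Gm2042 was 99.6% identical to that of Oog1, but 69.6%, 70.4% and 76.8% to those of Oog2, Oog3 and Oog4. The 5 tested genes among the 7 had a log2FC of 1.23 for Gm13084, 0.49 for Gm2042, 1.24 for Gm13023, 1.17 for C87977 and 1.28 for C87499. Gm13103 was under the filter, with at most 0.97 FPKM in any library. Of the next windows by identity, that of Pramel6 (61.8%) belonged to a gene with a log2FC of -1.68, that of Gm13078 (57.2%) to one with 0.46 and that of Pramef6 (57.1%) to one with 0.72. PRAME family windows with a mean identity of at most 5.0% belonged to genes from -1.24 (Pramel4, 2.4%) to 1.31 (Gm13125, 2.2%). Gm13125 was low, with 3.71 and 6.14 CPM in control and 14.2 and 10.2 CPM in treated embryos, and its log2FC had a standard error of 0.58. Whether likeness of the promoters bears on the log2FC was not tested. Gm2042, Gm13023 and C87977 share fragments with Oog1, and Gm13084 with Oog2, so their values are not independent of the oogenesins. No test was made on this set.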
